A study of Homo sapiens with 27 samples.

Results

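The genes described here are the 4 FGF receptor genes FGFR1, FGFR2, FGFR3 and FGFR4 and 6 genes that are commonly read as output of the MAPK cascade below these receptors, SPRY1, SPRY2, SPRY4, DUSP6, ETV4 and ETV5. They were chosen by name, and they are 10 of the 26485 genes in the count data. RNA-seq was made from T47D cells, an established luminal breast cancer line, that carried an empty pHAGE lentiviral vector (control) or the same vector with a mutant of the transcription factor GATA3, named A333fs, C321fs or Splice del. There were 3 libraries for each of these 4 lines. In Splice del, the loss of bases at a splice acceptor site shifts the reading frame, so that the wild-type sequence of the second zinc finger is lost, whereas the C321fs and A333fs frameshifts lie within that finger and leave part of it.

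All 4 lines went through lentiviral infection and puromycin selection, were used at low passage and still expressed their own wild-type GATA3, while the mutant proteins carried a Ty1 tag. By western blot, the paper reports like protein levels for Splice del and C321fs and a slightly lower one for A333fs. Each mutant was represented by 1 selected pool of cells, so a mutant and any other property of its pool cannot be told apart, and p-values measure the spread among libraries of the same pool. The sample descriptions and the study's methods give different growth media, so the medium of these libraries is not settled.

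FGF ligands bind FGF receptors together with heparan sulfate, and the active receptor kinase signals through the adaptor FRS2 to RAS, RAF, MEK and ERK. ERK signaling raises transcription of the ETS factors ETV4 and ETV5 and of its own inhibitors, among them the Sprouty proteins and DUSP6, a phosphatase that acts on ERK in the cytoplasm. In the mammary gland, FGF receptors take part in epithelial branching, and amplification of FGFR1 is a recurrent event in luminal breast cancer.

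The most calls among these genes were made in A333fs cells. There FGFR2 was 1.54-fold higher, and FGFR3 (1.80-fold), SPRY4 (1.61-fold) and ETV4 (2.29-fold) were lower. In C321fs cells ETV4 was 2.23-fold higher, opposite to its direction in A333fs cells, and no gene of the set passed both thresholds in Splice del cells. The thresholds were a fold change over 1.5 together with an adjusted p below 0.01, and a gene past both is called here. The p is from the quasi-likelihood test of edgeR, adjusted by the Benjamini-Hochberg method over all 14789 genes tested, and so is each adjusted p below. A333fs also had the most calls over all tested genes, 12.3% beside 10.7% in Splice del and 6.88% in C321fs cells. A trend over GC content and exon length was also removed from each library, as given beside each gene. The changes of FGFR3, FGFR4 and ETV4, the genes with the highest GC content in the set, then became smaller in A333fs cells. FGFR2 and FGFR3 then fell under the fold change of 1.5 there, while SPRY4 and ETV4 stayed called. In C321fs cells FGFR1 was then called beside ETV4, so A333fs no longer had the most calls alone.

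Upstream sequence is shown for FGFR2, FGFR3 and SPRY4, which were called in A333fs cells, and for FGFR4, whose second annotated start is the window outside exons that held a GATA motif. The sequences are from RefSeq (GRCh38.p14), 5′ to 3′ on the strand of the gene, within the 250 bases before an annotated start, and bases that lie in annotated exons were left out. The GATA motif was searched on both strands as AGATAA and, with another last base, as AGATAG. It was searched in the same way as TGATAA and, likewise with another last base, as TGATAG. The shorter, partial motif AGAT, which the paper reports at the peaks of the mutants themselves, was not searched. A match is in capitals. The FGFR2 stretch is chr10:121598459-121598694 on the minus strand, the FGFR3 stretch is chr4:1793043-1793292 on the plus strand, the FGFR4 stretch is chr5:177089300-177089549 on the plus strand, and the SPRY4 stretch is chr5:142324418-142324497 on the minus strand. The SPRY4 and FGFR4 stretches lie before internal starts, inside the bounds of their genes in the counts. Exon bases between the SPRY4 stretch and its start were left out.
FGFR2: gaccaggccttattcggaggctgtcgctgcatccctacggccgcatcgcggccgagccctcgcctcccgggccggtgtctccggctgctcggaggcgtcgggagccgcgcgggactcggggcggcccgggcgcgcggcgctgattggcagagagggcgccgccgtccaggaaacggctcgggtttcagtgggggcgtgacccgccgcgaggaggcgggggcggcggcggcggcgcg
FGFR3: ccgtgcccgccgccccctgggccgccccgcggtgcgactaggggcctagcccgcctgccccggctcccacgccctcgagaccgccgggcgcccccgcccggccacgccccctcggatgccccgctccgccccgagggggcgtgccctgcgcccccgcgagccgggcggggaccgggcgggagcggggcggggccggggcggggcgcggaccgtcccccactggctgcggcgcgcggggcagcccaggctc
FGFR4: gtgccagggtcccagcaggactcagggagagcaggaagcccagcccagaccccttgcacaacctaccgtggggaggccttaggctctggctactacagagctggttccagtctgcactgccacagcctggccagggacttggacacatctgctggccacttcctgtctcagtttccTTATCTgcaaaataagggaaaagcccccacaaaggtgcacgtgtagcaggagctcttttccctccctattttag
SPRY4: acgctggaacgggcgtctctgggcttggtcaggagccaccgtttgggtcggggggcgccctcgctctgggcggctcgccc
The stretch of FGFR3 is very rich in G and C (86.8%), and that of the second FGFR4 start is less so (57.2%). No RefSeq promoter was matched for FGFR1, ETV4 and ETV5, so ETV4, which was also called in A333fs cells, is not shown. Promoters were matched for the other 7 of the 10 genes, with 15 starts in all. A GATA motif was found at 2 of these starts, the second start of FGFR4 and an internal start of FGFR2, beside 22.3% of the 35116 promoters of the same length. The letters CCGGAA, the core of an ETS motif, were found at 2 starts, of SPRY1 and SPRY2, beside 14.5% of all promoters. A match is a description of the letters and not a bound site.

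Between 27872208 and 36788024 fragments were counted per library. The GATA3 gene itself was read at 1281 ± 50.8 CPM (SD, n = 3) in control and at means of 1016 in A333fs, 1142 in C321fs and 1001 in Splice del cells, the largest SD among the mutant lines being 45.0, and these counts do not separate the introduced from the wild-type transcript. Here CPM is the count scaled to library size with TMM factors. The 8 luminal markers summed to 11095 to 20104 CPM, and this sum was highest in control. The single markers did not move together. At an adjusted p below 0.01 in edgeR's quasi-likelihood test, 2 were higher and 4 lower in A333fs cells. In C321fs cells 1 was higher and 4 lower, and in Splice del cells 2 were higher and 3 lower. Of the markers of other cells, PTPRC had no count in any library, KRT5 had at most 3, and COL1A2 and PDGFRB had at most 1. The 4 fibroblast markers summed to 53.2 to 64.9 CPM in control and to 29.6 to 33.4 CPM in A333fs libraries, nearly all of it from COL1A1, with 40.7 to 49.7 CPM in C321fs and 44.8 to 50.7 CPM in Splice del libraries. The 3 basal markers summed to 0.271 to 0.353 CPM in control and to 0.925 to 1.29 CPM in A333fs libraries, with 0.761 to 0.907 CPM in C321fs and 0.236 to 0.488 CPM in Splice del libraries. The part of these markers in the results below was not tested. The log2 fold changes also fell with exon GC content, with Spearman's rho across 14789 genes of -0.67 in A333fs, -0.55 in C321fs and -0.51 in Splice del cells, and genes are not independent replicates.

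Of the 10 genes, 9 had enough counts to be tested and ETV5 had not. Among the 4 lines together, 7 of the 9 differed at an adjusted p below 0.01, where 56.2% of all tested genes did. The exceptions were SPRY1 (adjusted p = 0.0421, edgeR's F-test) and SPRY2 (adjusted p = 0.170). Against control, 4 of the 9 were called in A333fs cells, where 12.3% of all tested genes were called, 1 higher and 3 lower (5.46% of all genes higher and 6.81% lower). There was 1 call among the 9 in C321fs cells (6.88% of all tested genes) and 0 of the 9 in Splice del cells (10.7%). In Splice del cells 4 of the 9 had an unadjusted p below 0.05 in edgeR's quasi-likelihood test, beside 59% of all tested genes. DESeq2 called 0 of the 9 there as well. The 3 comparisons with control use the same 3 control libraries, so they are not independent of each other. Overlap of libraries is described gene by gene below, without its share over all genes, so it does not set these genes apart. No exon of the 10 genes overlaps an exon of another gene in the annotation used for the counts.

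**Figure D1:**
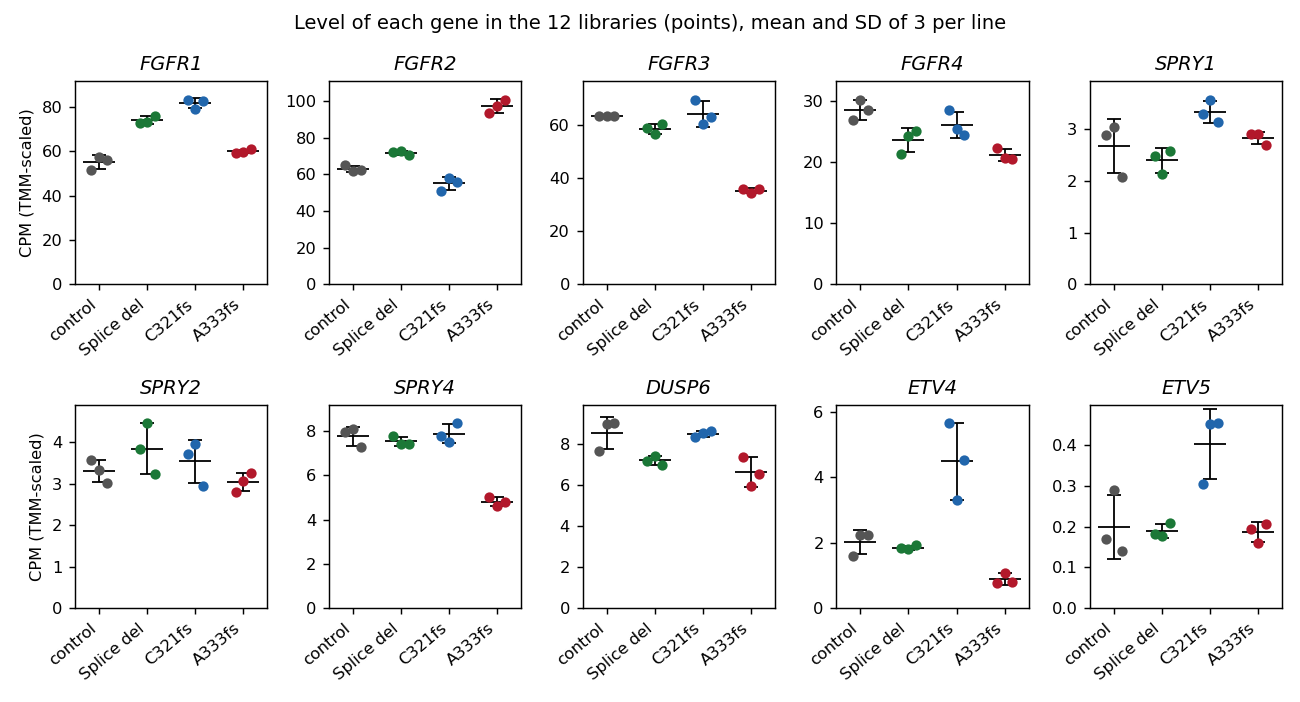
Level of the 10 genes in each of the 12 libraries (points, TMM-scaled CPM, each panel with its own axis from 0), with the mean and SD of the 3 libraries of each line. The A333fs points stand above all others for FGFR2 and below all others for FGFR3, SPRY4 and ETV4, and the C321fs points stand above all others for ETV4.

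FGFR2 (chr10:121478330-121598458, minus strand) encodes a receptor that, as its epithelial splice form, responds to FGF7 and FGF10. It was read at 65.0, 62.0 and 62.1 CPM in the control libraries, 93.7, 97.4 and 101 in A333fs, 51.0, 58.0 and 56.0 in C321fs and 72.0, 72.6 and 70.7 in Splice del. The libraries of the 4 lines did not overlap, in the order C321fs, control, Splice del and A333fs from low to high. The log2 fold change against control was 0.63 in A333fs cells (95% interval 0.51 to 0.75, adjusted p = 4.17e-07), 0.19 in Splice del cells (0.07 to 0.31, adjusted p = 0.0112) and -0.20 in C321fs cells (-0.32 to -0.07, adjusted p = 0.00985). A333fs cells were called, Splice del cells missed both thresholds, and C321fs cells missed the fold limit. A333fs also lay above C321fs by 0.82 (standard error 0.06, adjusted p = 3.39e-08) and above Splice del by 0.44 (0.06, adjusted p = 6.59e-05), the latter under the fold limit. The gene's exons hold 49.2% GC, and after removal of the trend the A333fs value was 0.57 (adjusted p = 1.67e-09), just under the fold limit of 0.58 on the log2 scale. The counts do not separate splice forms.

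FGFR3 (chr4:1793312-1808872, plus strand), whose loss of function lengthens and gain of function shortens bones, went the other way in A333fs cells. Its CPM was 63.4, 63.5 and 63.3 in control, 35.7, 34.2 and 35.7 in A333fs, 69.5, 60.1 and 62.8 in C321fs and 58.7, 56.4 and 60.3 in Splice del libraries. The 3 A333fs libraries were far below the other 9, while Splice del and C321fs overlapped each other and C321fs overlapped control. Against control the log2 fold change was -0.85 in A333fs cells (-0.98 to -0.72, adjusted p = 2.95e-08), -0.12 in Splice del cells (-0.24 to 0.01, adjusted p = 0.107) and 0.02 in C321fs cells (-0.11 to 0.14, adjusted p = 0.827). The difference of A333fs from the other mutants was of like size, -0.87 from C321fs (adjusted p = 3.35e-08) and -0.73 from Splice del (adjusted p = 8.04e-07). FGFR3 exons are rich in GC (62.0%). After removal of the trend, the A333fs values were -0.46 against control (adjusted p = 2.84e-07) and -0.51 against Splice del (adjusted p = 1.78e-07), both under the fold limit, and -0.68 against C321fs (adjusted p = 1.23e-09), which was still called. FGFR3 was then also higher in C321fs cells than in control (0.21, adjusted p = 0.000994), under the fold limit.

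FGFR1 (chr8:38411138-38468834, minus strand), the receptor gene amplified in part of luminal breast cancers, was higher than control in C321fs and Splice del cells, under the fold limit. It was read at 51.5, 57.6 and 56.2 CPM in control, 59.4, 59.6 and 60.9 in A333fs, 83.4, 79.1 and 82.9 in C321fs and 72.6, 73.3 and 76.1 in Splice del libraries. The lines did not overlap, in the order control, A333fs, Splice del and C321fs. Against control it was higher by a log2 fold change of 0.57 in C321fs (0.45 to 0.69, adjusted p = 2.31e-06) and 0.43 in Splice del cells (0.31 to 0.54, adjusted p = 1.3e-05), so neither was called, although the C321fs fold of 1.48 was next to the limit. In A333fs cells it was 0.12 (0.01 to 0.24, adjusted p = 0.0671). A333fs lay below C321fs by a log2 fold change of -0.45 (adjusted p = 1.69e-05). Once the trend was removed (56.9% GC), FGFR1 was called in C321fs cells at 0.74 (adjusted p = 5.58e-11), and it was also higher in Splice del (0.53, adjusted p = 2.34e-09) and A333fs cells (0.36, adjusted p = 9e-07), both under the fold limit.

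FGFR4 (chr5:177086872-177098142, plus strand), which with the coreceptor KLB is the liver receptor of FGF19, was not called in any comparison. Its CPM was 26.9, 30.2 and 28.5 in control, 22.3, 20.6 and 20.5 in A333fs, 28.5, 25.3 and 24.5 in C321fs and 21.3, 24.1 and 25.1 in Splice del libraries. The A333fs and Splice del libraries lay below all control libraries and overlapped each other. Its log2 fold change was -0.43 in A333fs (-0.60 to -0.26, adjusted p = 0.000245), -0.28 in Splice del (-0.45 to -0.11, adjusted p = 0.0071) and -0.13 in C321fs cells (-0.30 to 0.04, adjusted p = 0.185). FGFR4 has the highest exon GC content of the 10 genes (63.5%), and with the trend removed the A333fs value was -0.01 (adjusted p = 0.922) and the Splice del value -0.09 (adjusted p = 0.194).

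To compare the receptors with each other, counts were divided by exon length and summed over the 4 genes, as FPKM. The sum was 43.2 ± 0.721 (SD, n = 3) in control, 41.5 ± 0.601 in A333fs, 45.4 ± 1.33 in C321fs and 45.1 ± 0.949 in Splice del cells. In proportion to its size the sum thus varied less than its parts, but no mutant line overlapped control in it. The exact permutation test (two-sided) of the sum gave p = 0.1 for each mutant line against control, the smallest that 3 against 3 libraries allow. The trend over GC content was left in, and neither sum nor shares were made without it. With the trend removed, the fitted log2 fold changes in A333fs cells were 0.36 for FGFR1, 0.57 for FGFR2, -0.46 for FGFR3 and -0.01 for FGFR4. FGFR2 made up 27.4%, 25.3% and 25.8% of the sum in the control libraries, 40.8%, 42.5% and 42.9% in A333fs, 19.5%, 23.4% and 22.3% in C321fs and 29.1%, 29.0% and 27.5% in Splice del. FGFR3 made up 33.1% ± 0.547 of it in control and 19.1% ± 0.355 in A333fs cells. In control FGFR3 was thus the receptor transcript with the largest share, and in A333fs cells FGFR2 was.

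The ratio of FGFR2 to FGFR3 in FPKM was 0.816, 0.777 and 0.782 in the control libraries, 2.09, 2.27 and 2.25 in A333fs, 0.585, 0.768 and 0.711 in C321fs and 0.976, 1.03 and 0.933 in Splice del. No line overlapped control in this ratio, and the A333fs ratios were far above those of the other 9 libraries. For each mutant line against control the exact permutation test (two-sided) gave p = 0.1, the smallest that 3 against 3 libraries allow, so this test cannot reach 0.05. FGFR1 made up 20.2% ± 0.858 (SD, n = 3) of the sum in control and 28.6% ± 0.587 in C321fs cells, with the same p = 0.1 in the exact permutation test. A ratio within a library does not say which of its parts changed. After removal of the trend, the fitted log2 fold changes in A333fs cells were 0.57 for FGFR2 and -0.46 for FGFR3, still opposite in sign.

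**Figure D2:**
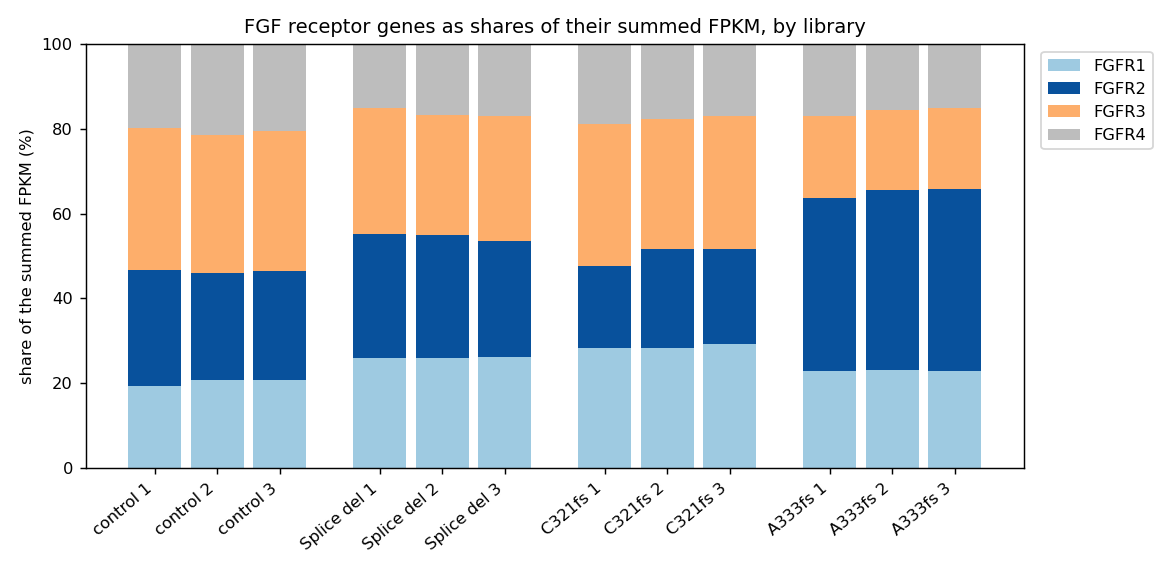
Share of each FGF receptor gene in the summed FPKM of the 4 receptor genes (percent, stacked to 100) for each of the 12 libraries. FGFR2 takes 40.8% to 42.9% in the A333fs libraries and FGFR3 18.8% to 19.5%, whereas FGFR3 has the larger share of the pair in all control and C321fs libraries.

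ETV4 (chr17:43527843-43546432, minus strand), an ETS factor of the PEA3 group induced by ERK signaling, showed the widest range among the tested genes of the set. Its counts were 47, 70 and 64 in the control libraries, 24, 34 and 27 in A333fs, 186, 95 and 140 in C321fs and 71, 61 and 55 in Splice del. As CPM these were 1.59, 2.24 and 2.22 in control, 0.775, 1.08 and 0.793 in A333fs, 5.66, 3.29 and 4.54 in C321fs and 1.83, 1.80 and 1.92 in Splice del libraries. The A333fs libraries were below and the C321fs libraries above all libraries of control and Splice del, which overlapped each other. The C321fs libraries also varied most, with a mean of 4.50 ± 1.18 CPM (SD, n = 3).

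The log2 fold change of ETV4 against control was 1.16 in C321fs cells (0.76 to 1.56, adjusted p = 0.000154) and -1.19 in A333fs cells (-1.71 to -0.68, adjusted p = 0.000586), both called, and -0.13 in Splice del cells (-0.58 to 0.32, adjusted p = 0.624). Between A333fs and C321fs cells the difference was -2.35 (standard error 0.22, adjusted p = 7.77e-07), a 5.11-fold lower level in A333fs cells. Splice del lay below C321fs by 1.29 on the log2 scale (log2 fold change -1.29, adjusted p = 0.000205). A333fs lay below Splice del (log2 fold change -1.06, adjusted p = 0.0054), a call that was lost when Splice del replicate 1, 2 or 3 or A333fs replicate 1 or 3 was left out (adjusted p = 0.0153 to 0.0277). With the trend removed (60.6% GC) ETV4 stayed called in C321fs (1.32, adjusted p = 2.71e-06) and A333fs cells (-0.84, adjusted p = 0.00401).

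ETV5 (chr3:186046317-186109112, minus strand), a close relative of ETV4, had only 4 to 14 counts per library. The counts were 5, 9 and 4 in control, 6, 5 and 7 in A333fs, 10, 13 and 14 in C321fs and 7, 6 and 6 in Splice del. The 3 C321fs libraries had the highest counts, and the CPM of 0.304, 0.451 and 0.454 lay above the 0.139 to 0.289 of the other 9 libraries. When no filter on low counts was used, the log2 fold change in C321fs cells was 0.98 (standard error 0.48, adjusted p = 0.113 over 21227 genes), short of the threshold, and the interval that such counts allow is wide.

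Among the feedback inhibitors, SPRY4 (chr5:142310427-142325055, minus strand), which holds back RAS and RAF activation downstream of receptor kinases, was the one called. Its CPM was 7.94, 8.08 and 7.29 in control, 5.03, 4.59 and 4.81 in A333fs, 7.76, 7.53 and 8.36 in C321fs and 7.77, 7.42 and 7.42 in Splice del libraries. Control, Splice del and C321fs overlapped, and all A333fs libraries were lower than the other 9. The log2 fold change against control was -0.69 in A333fs (-0.88 to -0.50, adjusted p = 9.37e-06), -0.04 in Splice del (-0.22 to 0.13, adjusted p = 0.677) and 0.02 in C321fs cells (-0.16 to 0.20, adjusted p = 0.856). A333fs was also lower than C321fs by -0.71 (adjusted p = 1.95e-05) and than Splice del by -0.65 (adjusted p = 0.000107). With the trend removed (52.9% GC) the change against control was -0.61 (adjusted p = 1.39e-05) and still called. With upper-quartile scaling it was -0.58 (adjusted p = 5.16e-05), just under the fold limit, as was the difference from Splice del without A333fs replicate 2 (-0.58, adjusted p = 0.000953).

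The other Sprouty genes were called in no comparison. SPRY2 (chr13:80335977-80340951, minus strand) had 87 to 151 counts per library and SPRY1 (chr4:123396795-123403760, plus strand) 60 to 108. SPRY2 averaged 3.31 ± 0.272 CPM (SD, n = 3) in control, 3.04 ± 0.226 in A333fs, 3.54 ± 0.525 in C321fs and 3.85 ± 0.612 in Splice del cells, and every line overlapped control. SPRY1 averaged 2.67 ± 0.515 CPM in control, 2.84 ± 0.118 in A333fs, 3.33 ± 0.218 in C321fs and 2.39 ± 0.236 in Splice del cells, and only C321fs lay apart from control. For SPRY1 in C321fs cells the log2 fold change was 0.31 (0.01 to 0.62, adjusted p = 0.0772). In A333fs cells the intervals ran from -0.23 to 0.39 for SPRY1 and from -0.43 to 0.19 for SPRY2, so a fall as large as that of SPRY4 (-0.69) lay outside both. After removal of the trend SPRY2 was at -0.34 in A333fs cells (adjusted p = 0.0564).

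DUSP6 (chr12:89347825-89352859, minus strand), which removes phosphate from active ERK, was lower in A333fs cells without reaching the fold limit. It was read at 7.63, 8.95 and 8.99 CPM in control, 7.36, 5.93 and 6.55 in A333fs, 8.31, 8.50 and 8.62 in C321fs and 7.17, 7.42 and 6.97 in Splice del libraries. The Splice del and A333fs libraries were all below control and overlapped each other, and C321fs overlapped control. Its log2 fold change was -0.37 in A333fs (-0.57 to -0.16, adjusted p = 0.00376), -0.25 in Splice del (-0.45 to -0.04, adjusted p = 0.038) and -0.01 in C321fs cells (-0.21 to 0.19, adjusted p = 0.944). Unlike for the GC-rich receptors, removal of the trend (48.4% GC) made the A333fs value larger, -0.47 (adjusted p = 0.000371), and the Splice del value as well, -0.35 (adjusted p = 0.00356).

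**Figure D3:**
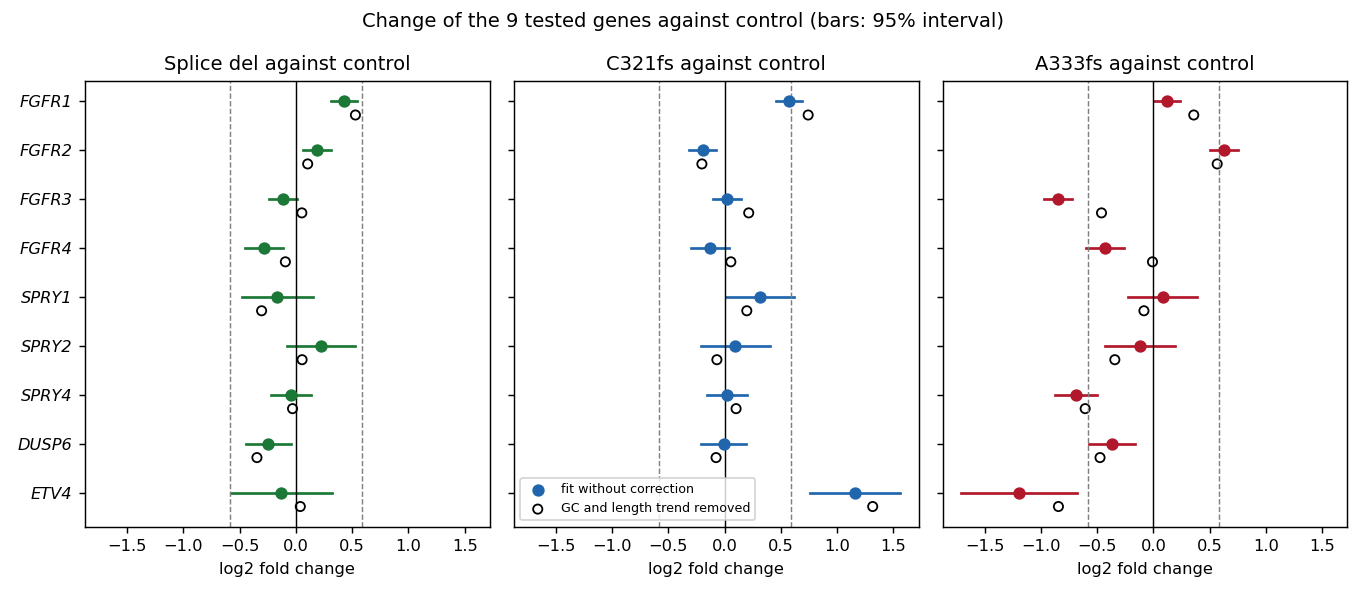
Log2 fold change against control of the 9 tested genes in the 3 mutant lines (filled points with 95% intervals), and the same with the trend over GC content and exon length removed (open points). Dashed lines mark the 1.5-fold limit. In A333fs cells the open points of FGFR3, FGFR4 and ETV4 lie nearer to 0 than the filled ones, while SPRY4 and ETV4 lie beyond the lower limit in both.

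Between the mutant lines, 4 of the 9 genes were called for A333fs against C321fs (FGFR2, FGFR3, SPRY4 and ETV4), where 5.55% of all tested genes were called. For A333fs against Splice del 3 were called (FGFR3, SPRY4 and ETV4, with 3% of all genes), and for Splice del against C321fs 1 was called (ETV4, with 2.64% of all genes). With the trend removed, 4 were called for A333fs against C321fs (5.27% of all genes) and 1 for A333fs against Splice del (2.62%).

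The rest of the pathway was described over 76 further genes in 6 lists, of which 52 were tested. In A333fs cells 10 of the 52 were called, 2 higher and 8 lower (19.2%, beside 12.3% of all tested genes). In C321fs and in Splice del cells 5 were called in each, 1 higher and 4 lower (9.62%, beside 6.88% and 10.7% of all genes). The median log2 fold change of the 52 was -0.11 in A333fs, -0.01 in C321fs and -0.06 in Splice del cells, beside 0.01, 0.02 and 0.03 over all tested genes. With the trend removed, 4 of the 52 were called in A333fs cells, and calls over all genes fell to 5.44%.

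At the top of the pathway, 20 of the 22 genes of the FGF ligand list had too few counts to be tested, so at this depth little can be said of the ligands. The 2 tested were FGF11 and FGF12. Like FGF13 and FGF14 of the same list, they act inside cells rather than on the receptors. DESeq2, with its own filter, called FGF13 higher in Splice del cells, from 1, 1 and 2 counts in control to 11, 21 and 8, a gene named after its values were seen. FGF12 was higher in A333fs cells by a log2 fold change of 1.06 (adjusted p = 0.00174), from 0.909 ± 0.205 CPM (SD, n = 3) to 1.90 ± 0.0873. Of 9 tested coreceptor and binding protein genes, FGFRL1, a receptor without a kinase domain, was lower in A333fs cells (-0.67, adjusted p = 1.36e-05). FLRT3, a membrane protein that binds FGF receptors, was higher (1.64, adjusted p = 0.000761), from 12, 10 and 7 counts in control to 30, 31 and 37 counts. After removal of the trend FLRT3 stayed called (1.30, adjusted p = 0.00478), whereas FGFRL1 (63.3% GC) was at -0.25 and FGF12 at 0.75 (adjusted p = 0.0148), and neither was called.

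None of the 10 receptor adaptor genes was called in any mutant line, although 9 of them had an unadjusted p below 0.05 in A333fs cells in edgeR's quasi-likelihood test, 8 in Splice del and 4 in C321fs cells. Over all tested genes that share was 63.5%, 59.0% and 57.8% in the same order. DESeq2 called 0 of them in each line. Of the 13 genes of the RAS, RAF, MEK and ERK core, the kinase gene ARAF alone was called, in A333fs cells (-0.61, adjusted p = 2.76e-06). ARAF was also lower in Splice del (-0.44, adjusted p = 6.09e-05) and C321fs cells (-0.49, adjusted p = 4.1e-05), under the fold limit, and with the trend removed it was at -0.52 in A333fs cells and not called.

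Of the 9 other feedback genes, DUSP4 had the largest change in A333fs cells. This gene, whose phosphatase acts on ERK in the nucleus, was read at 135, 136 and 133 CPM in control, 54.1, 53.3 and 55.0 in A333fs, 129, 128 and 126 in C321fs and 89.6, 86.4 and 92.0 in Splice del libraries. The lines did not overlap, with A333fs lowest and control highest. Against control the log2 fold change was -1.32 in A333fs (standard error 0.05, adjusted p = 1.42e-11), -0.08 in C321fs (0.05, adjusted p = 0.176) and -0.59 in Splice del cells (0.05, adjusted p = 1.22e-07), and after removal of the trend it was -1.24 in A333fs cells.

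The nuclear ERK phosphatase gene DUSP5 (-0.59, adjusted p = 2.37e-05, next to the fold limit and not called by DESeq2) and the cytoplasmic one DUSP7 (-0.76, adjusted p = 1.61e-06) were also called lower in A333fs cells. After removal of the trend they were at -0.39 and -0.47 and under the fold limit. IL17RD, a membrane inhibitor of FGF signaling also known as SEF, was higher in Splice del cells (0.61, adjusted p = 0.00392) and was at 0.57 in A333fs cells (adjusted p = 0.00555), under the fold limit. Without the trend it was at 0.48 in Splice del cells and not called. In all, 3 of the 9 other feedback genes were called in A333fs cells (12.3% of all tested genes) and 2 in Splice del cells (10.7%). Those in A333fs cells were the phosphatase genes DUSP4, DUSP5 and DUSP7, each lower. After removal of the trend DUSP4 alone stayed called there, beside 5.44% of all genes. In C321fs cells 0 were called by edgeR and by DESeq2. There 4 of the 9 had an unadjusted p below 0.05 in edgeR's quasi-likelihood test, beside 57.8% of all tested genes.

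Among the other genes that ERK signaling is known to raise, MYC was lower in all 3 mutant lines, with log2 fold changes of -0.92 in A333fs (adjusted p = 4.6e-09), -0.66 in C321fs (adjusted p = 6.47e-07) and -1.02 in Splice del cells (adjusted p = 2.13e-09). IER3, an immediate early gene, was lower by similar amounts in the same order of lines, at -0.60 (adjusted p = 1.02e-05), -0.65 (adjusted p = 1.19e-05) and -0.61 (adjusted p = 1.07e-05). Its row in the counts joins copies on alternative haplotype sequences, so its level is uncertain, and after removal of the trend it was at -0.34, -0.45 and -0.50 and called in no line. EPHA4, an ephrin receptor, fell from 110, 94 and 78 counts in control to 22, 20 and 16 in Splice del libraries (-2.45, adjusted p = 8.62e-08) and was at -1.33 in C321fs (adjusted p = 1.62e-05) and -0.48 in A333fs cells (adjusted p = 0.0106, not called). Without the trend EPHA4 was called lower in A333fs cells as well (-0.66, adjusted p = 0.0015).

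PHLDA1, which is induced by several growth factor receptors, was lower in C321fs cells (-0.87, adjusted p = 5.08e-08) and was at 0.47 in A333fs cells (adjusted p = 3.27e-06), under the fold limit. The 2 remaining calls of this list lie outside the naming rule and were named after their values were seen. ETV1, the third gene of the PEA3 group beside ETV4 and ETV5, was higher in C321fs cells (0.79, adjusted p = 0.000627), and the early growth response gene EGR1 was lower in A333fs cells (-0.73, adjusted p = 0.00865) and was not called by DESeq2. Neither was called after removal of the trend, ETV1 at 0.53 (adjusted p = 0.0123) and EGR1 at -0.55 (adjusted p = 0.047).

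**Figure D4:**
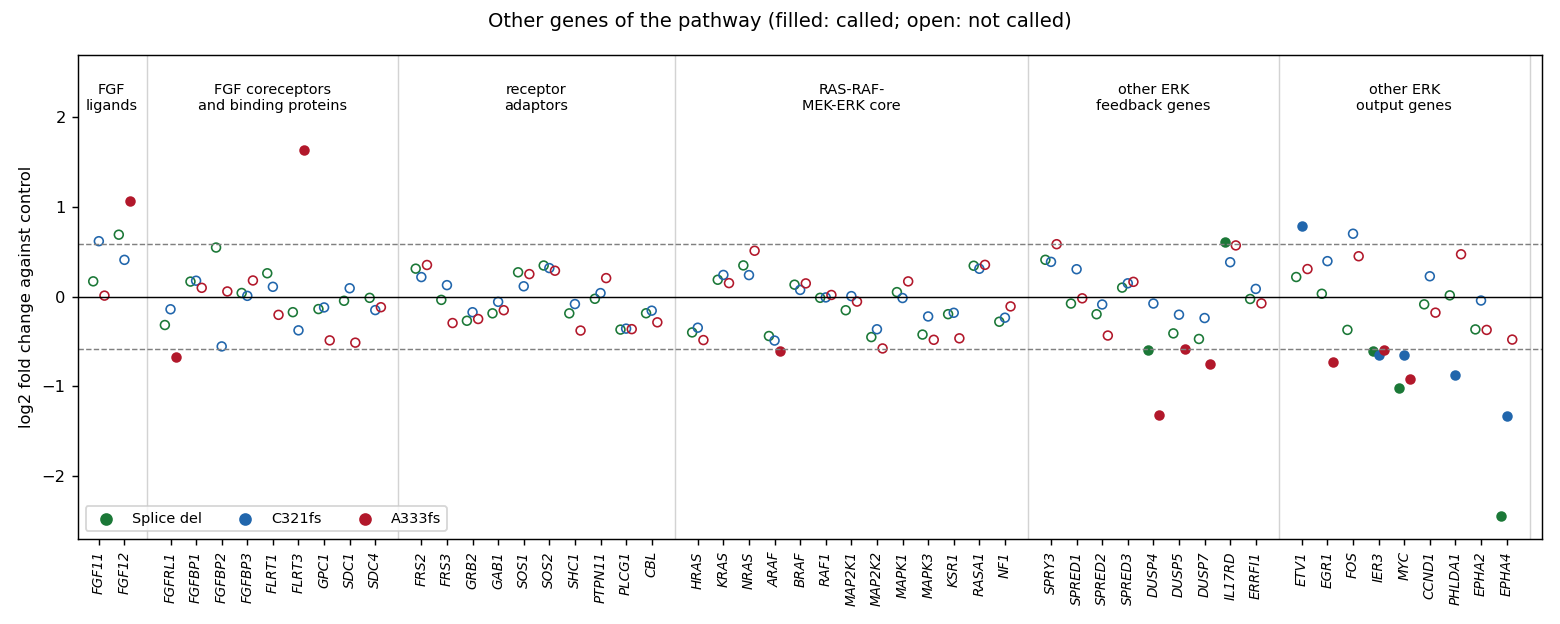
Log2 fold change against control of the 52 tested genes of the 6 other pathway lists, by list, for Splice del (green), C321fs (blue) and A333fs (red), with called values filled and dashed lines at the 1.5-fold limit. The adaptor genes lie within the limit in every line, and the filled red points of the feedback genes are all below 0.

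For each gene that differed among the lines, the genes most alike in pattern were taken by Pearson's r of log2 CPM over the 12 libraries among 14780 tested genes. These values describe the libraries, which share their lines and their GC trend, and they carry no p. The nearest were CHD5 (0.983) and ERO1B (0.972) for FGFR1, SYBU (0.985) and C14orf132 (0.984) for FGFR2, GRAMD4 (0.991) and PRICKLE3 (0.982) for FGFR3, and E2F4 (0.973) and BCKDK (0.969) for FGFR4. For the output genes they were RTN2 (0.974) and KHNYN (0.971) for SPRY4, TGFB1 (0.929) and LRFN1 (0.927) for DUSP6, and KREMEN2 (0.980) and TMEM121 (0.965) for ETV4.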

How the data were processed

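The RNA-seq of 4 T47D lines was used (empty vector as control, and the GATA3 mutants A333fs, C321fs and Splice del), with 3 libraries per line. Groups and replicate numbers follow the sample titles. The 15 ChIP-seq samples were not used here. Reads were trimmed with Trimmomatic and aligned to hg38, and the authors deposited whole-number counts of fragments per gene from featureCounts 1.6.4, not normalized and without use of strand. The header of the counts names a STAR folder and the submitters' processing notes name HISAT2, so the aligner is not settled. Exon lengths were taken from the same deposited counts.

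Genes were kept with filterByExpr by line (14789 of 26485), scaled with TMM and given to the quasi-likelihood fit of edgeR 4.0.16 (limma 3.58.1, R 4.3.3), with 1 coefficient per line. CPM are TMM-scaled, and FPKM are these CPM per kilobase of exon. Genes were called at an adjusted p below 0.01 over all tested genes and a fold change over 1.5, the limits of the study. Intervals are 95% intervals of the fit and cover the spread between libraries only. Libraries held 27872208 to 36788024 counted fragments, and the common dispersion gave a coefficient of variation of 6.73%. With 200 genes changed 2-fold in data simulated for A333fs against control, 195 (97.5%) of them were called among 14665 genes tested, with 0 false calls. The simulated counts had the same dispersion for all genes and no trend over GC content, and genes with few expected counts were not changed. This check therefore says nothing about calls that come with the GC trend. Changes nearer to the 1.5-fold limit, such as those of FGFR2 and SPRY4 in A333fs cells, were not simulated.

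Replicate numbers did not pair the libraries, since the residuals of same-numbered libraries correlated at -0.0092 on average over 18 pairs, with 2 above 0.1. The members and the gene lists were chosen with earlier results of these data known. Named genes were the 10 members, GATA3, at most 4 called genes of each pathway list with the smallest adjusted p, and the 2 genes most alike in pattern to each member that differed among the lines. Alternatives were RLE and upper-quartile scaling, no filter on low counts, at least 10 counts in every library, DESeq2 1.42.0, a fit of each pair of lines alone, a replicate block, no minimum fold change, an adjusted p below 0.05, a loess trend over GC content and exon length (span 0.3) removed, and each library left out. Promoters are from RefSeq (GRCh38.p14).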

Additional observations from a re-analysis of the deposited data

Results flagged for a closer look

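Differences between a pair of mutant lines were listed where they passed both thresholds, a fold change over 1.5 and an adjusted p below 0.01 in the quasi-likelihood test of edgeR. Each line was 1 pool, so a mutant and its pool cannot be told apart here either. Against C321fs, A333fs cells differed by a log2 fold change of 0.82 in FGFR2, -0.87 in FGFR3, -0.71 in SPRY4 and -2.35 in ETV4. In ETV4 the lines lay on both sides of control, with C321fs higher and A333fs lower in 3 of 3 libraries each. Against Splice del, A333fs cells differed by -0.73 in FGFR3, -0.65 in SPRY4 and -1.06 in ETV4. Splice del differed from C321fs by -1.29 in ETV4. The part of GC content in these differences was examined only through the removed trend, under which FGFR3 was at -0.51 and SPRY4 at -0.58 for A333fs against Splice del, both under the fold limit, and the others were still called. With 3 libraries per line, no library was tested as an outlier. C321fs replicate 1 stood furthest from its mates. The chi-square per gene of its counts was 15.9 against replicate 2 and 27.9 against replicate 3, and 5.61 between those. In the other lines such pairs gave 2.16 to 10.4. Without C321fs replicate 1, 8.62% of all genes were called in C321fs cells. ETV4 stayed called there with any 1 library left out (log2 fold change 0.95 to 1.33).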

How the results depend on the processing

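Over all alternatives, 199 of 218 counts of called genes stayed within 1.5 times the value reported. Of 1080 log2 fold changes of the 9 tested genes of the set, 1064 kept their side of the thresholds. A call was lost in 11 and gained in 5, and 0 called values changed sign. Most of the 1080 were not called to begin with, and a library left out was often of neither line compared, so the 1064 do not measure how firm the calls are. Removal of the trend alone lost the A333fs calls of FGFR2 and FGFR3 against control. It also lost those of FGFR3 and SPRY4 against Splice del. Without a minimum fold change, 2 of the genes passed in Splice del, 3 in C321fs, 2 for Splice del against C321fs and 5 for A333fs against Splice del (6.32% and 11.9% of all genes in these last 2), and 27, 17 and 21 of the 52 other pathway genes passed in A333fs, C321fs and Splice del cells, where 47.4%, 36.8% and 41.1% of all genes did. In C321fs cells 2 genes, FGFR1 beside ETV4, were called when the GC and length trend was removed, under upper-quartile scaling and when at least 10 counts were asked of every library, and 3 other pathway genes under the first 2 of these. The trend removed also left 2 genes and 4 other pathway genes in A333fs cells, where calls over all genes went from 12.3% to 5.44%, and 1 gene for A333fs against Splice del (from 3% to 2.62%). Under upper-quartile scaling the median over all genes stood at a log2 fold change of 0.12 in A333fs, 0.11 in C321fs and 0.12 in Splice del cells. With 1 library left out, the counts for the genes ran from 0 to 0 in Splice del, 1 to 2 in C321fs, 4 to 4 in A333fs and 2 to 3 for A333fs against Splice del, and 6 to 7 differed among the lines. The other pathway genes ran from 6 to 12 in A333fs, 4 to 6 in C321fs and 3 to 6 in Splice del cells, with the lowest values of 3 in Splice del and 6 in A333fs cells without control replicate 2. FGFR1 was called in C321fs cells without control replicate 2 (0.60) or C321fs replicate 2 (0.59), which gave 2 genes. A replicate block left the counts for the genes at 4, 1 and 0 in A333fs, C321fs and Splice del cells, with 8 other pathway genes in A333fs cells and 6 of the genes differing among the lines, and moved no count by more than 1.5 times. The causes of these shifts were not tested. At the 4 to 14 counts per library of ETV5, a fitted log2 fold change of 0.98 was not called.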
